A study of Mus musculus with 20 samples.

Results

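The mevalonate arm of cholesterol synthesis is the run of enzymes that builds farnesyl and geranylgeranyl diphosphate out of acetyl-CoA. It was taken here as 8 genes listed by name: Acat2, Hmgcs1, Mvk, Pmvk, Mvd, Idi1, Fdps and Ggps1. All 8 were found among the 43346 annotated genes of the deposited count table, and all 8 were among the 19623 genes with enough counts to be tested.

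RNA of mouse cortex was sequenced in bulk in 20 libraries, 5 in each of 4 groups. The groups were KI at 10 months, control at 10 months, KI at 3 months and control at 3 months. Every animal, controls included, carried the 5xFAD transgenes in the hemizygous state (5xFAD+/-). These are human familial Alzheimer's disease genes under the neuronal Thy1 promoter, and the mice deposit amyloid. Controls were Abca7WT/WT. KI animals carried a knocked-in substitution in Abca7, a lipid transporter gene, which the protocol names A693S and the series title A696S. The protocol speaks of heterozygous (Abca7WT/KI) and homozygous (Abca7KI/KI) knockins, and the labels do not say which of these a KI library came from. The mice are described as male littermates. No group lacked the 5xFAD transgenes, so the age comparisons cannot be told apart from amyloid load. Nothing in the labels states that each library is its own animal, and what the p-values take as error is the spread among these libraries, which may be technical.

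The arm starts when acetyl-CoA units are joined into HMG-CoA, from which mevalonate is made. Phosphorylation and decarboxylation give isopentenyl diphosphate, whose units are joined into farnesyl diphosphate, the branch point towards sterols, and geranylgeranyl diphosphate, used to anchor small GTPases to membranes. Sterol shortage releases SREBP2, a transcription factor that binds sterol regulatory elements near genes of the pathway. Brain makes nearly all of its own cholesterol, since lipoprotein cholesterol does not cross the blood-brain barrier, and much of it goes into myelin.

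Promoter windows from RefSeq (GRCm38.p6), running from 250 bases before to 50 bases after a start site, were matched for 7 of the 8 members, with a pair of windows for Pmvk. No window was matched for Fdps, so its promoter was not searched for motifs. The 4 windows shown belong to genes that behaved differently: Acat2, the member that changed with genotype and age, Hmgcs1, the most abundant member per length, and Mvk and Mvd, which moved together from library to library. Whether the motifs have a part in this behaviour was not tested. Capitals mark matches to the sterol regulatory element TCACNCCAC and to the CCAAT box, on either strand (ATTGG is CCAAT read on the other strand).
Acat2 promoter, chr17:12960676-12960975, minus strand: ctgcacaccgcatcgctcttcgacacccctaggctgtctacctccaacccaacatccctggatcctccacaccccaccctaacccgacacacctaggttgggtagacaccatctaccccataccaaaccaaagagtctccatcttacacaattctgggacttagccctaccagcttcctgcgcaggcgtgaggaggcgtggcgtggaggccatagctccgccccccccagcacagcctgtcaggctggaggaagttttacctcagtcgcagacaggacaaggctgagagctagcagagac
Hmgcs1 promoter, chr13:119690101-119690400, plus strand: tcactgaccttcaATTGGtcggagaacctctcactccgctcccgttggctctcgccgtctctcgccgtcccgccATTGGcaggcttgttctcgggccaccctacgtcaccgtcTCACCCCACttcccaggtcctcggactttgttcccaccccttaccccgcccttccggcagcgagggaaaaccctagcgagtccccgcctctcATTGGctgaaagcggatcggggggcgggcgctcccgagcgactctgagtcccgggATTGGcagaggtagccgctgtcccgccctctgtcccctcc
Mvk promoter, chr5:114444019-114444318, plus strand: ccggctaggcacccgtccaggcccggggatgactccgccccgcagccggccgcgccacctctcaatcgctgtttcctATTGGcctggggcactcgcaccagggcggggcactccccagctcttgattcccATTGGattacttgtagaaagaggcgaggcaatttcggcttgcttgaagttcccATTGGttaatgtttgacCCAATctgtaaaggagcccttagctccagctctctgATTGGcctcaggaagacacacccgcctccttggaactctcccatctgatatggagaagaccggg
Mvd promoter, chr8:122443373-122443672, minus strand: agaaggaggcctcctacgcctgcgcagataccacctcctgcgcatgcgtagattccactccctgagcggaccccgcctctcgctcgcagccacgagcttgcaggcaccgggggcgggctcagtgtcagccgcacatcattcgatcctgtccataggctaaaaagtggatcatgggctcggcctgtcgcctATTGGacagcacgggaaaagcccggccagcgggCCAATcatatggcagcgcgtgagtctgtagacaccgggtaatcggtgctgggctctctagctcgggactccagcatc

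Among the member windows, the Hmgcs1 window held the sterol regulatory element, as TCACCCCAC at position -137 from the start site. That motif was found in 1.24% of 32851 mouse promoter windows. CCAAT boxes numbered 5 in Mvk, 4 in Hmgcs1, 3 in Ggps1, 2 in Mvd, 2 in Idi1, and 1 and 0 in the windows of Pmvk, and 37.4% of all windows held at least 1. The Acat2 window held neither motif. The E-box CACGTG, present in 7.15% of windows, was in no member window. Overlaps between motifs were allowed, and a missing match says only that these letters are not in these 300 bases.

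Library totals ran from 42896149 to 57447015 counts, and levels are given as CPM, a gene's share of the TMM-scaled library total brought to the same total in every library. A pair of libraries stood apart. In KI replicate 5 at 10 months, Xist had 54206 counts and the Y-linked Ddx3y 1, against at most 218 and at least 2382 in the other 19 libraries, although the mice are described as male. KI replicate 3 at 3 months stood apart in how its counts varied with the GC content of transcripts, described below. The edgeR fits of the members, and edgeR calls of the other pathway genes, were recomputed without both, and calls that this ended are given. Correlations of the members with the genes of most similar pattern were recomputed without both as well. Permutation tests, group overlaps, levels per length, and correlations among members or with GC content were not recomputed without this pair. Marker calls are given with all libraries only. All cell type markers looked up for cortex (neurons, astrocytes, oligodendrocytes, microglia) were present in every group. In bulk RNA, a change in the number of cells of a type and a change in RNA per cell cannot be told apart.

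The members differed widely in level. Per kilobase of the gene length in the deposited table, Hmgcs1 was highest at 107 ± 12.5 CPM per kb (SD over 20 libraries), followed by Fdps at 65.6 ± 12.9. Pmvk at 23 ± 3.22, Acat2 at 21.6 ± 4.77 and Ggps1 at 18.3 ± 2.13 formed the middle of the order. Mvd at 8.99 ± 2.48, Mvk at 4.86 ± 1.12 and Idi1 at 4.29 ± 0.825 CPM per kb came last. Ranges over the libraries overlapped between each neighbouring pair except Fdps and Pmvk, and Ggps1 and Mvd. The places of Fdps and Ggps1 rest on the length used. With the 4208 exon bases that GENCODE gives Fdps, in place of the 1241 bases in the table, its level was 19.3 CPM per kb, and with 4721 in place of 2367 bases that of Ggps1 was 9.18 CPM per kb, beside 8.51 for Mvd on the same lengths.

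Acat2 (chromosome 17, 12942890 to 12960747, mm10, minus strand) encodes the cytosolic thiolase that joins acetyl-CoA units into acetoacetyl-CoA. In KI cortex at 10 months, replicates 3 to 7 had 73.2, 71.6, 82.0, 67.4 and 68.5 CPM. In control cortex at 10 months, replicates 6 to 10 had 58.9, 52.3, 61.2, 58.3 and 56.7 CPM. Every KI library was above every control library at this age.

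At 3 months Acat2 had 45.4, 48.5, 46.3, 48.8 and 44.9 CPM in KI and 45.2, 42.3, 44.6, 42.5 and 41.5 CPM in control, and these groups overlapped. Both 10-month groups lay above both 3-month groups without overlap. The 10-month KI libraries were 1.26-fold above control, a log2 fold change of 0.34 ± 0.06 (SE, edgeR adjusted p = 0.0258), against 0.11 ± 0.06 at 3 months (adjusted p = 0.9998).

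With age, Acat2 rose 1.55-fold in KI (log2 0.63 ± 0.06, edgeR adjusted p = 1.57e-07) and 1.33-fold in control (0.41 ± 0.06, adjusted p = 6.74e-05). The difference between these effects, 0.22 ± 0.08, did not pass (adjusted p = 0.9995). The age calls held without any one library, with adjusted p up to 3.8e-06 in KI and 0.000797 in control.

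The 10-month genotype call of Acat2 lay close to the threshold. It was lost when control replicate 6, 7, 9 or 10 was left out, with edgeR adjusted p of 0.0618, 0.234, 0.137 and 0.188, and without KI replicate 3, 4 or 7, with 0.0905, 0.116 and 0.055. Over the 10 libraries left out in turn, its log2 fold change ran from 0.29 to 0.36. KI replicate 5 had the highest level, and without it the change was 0.29 (adjusted p = 0.0403). The call was also lost without a low-count filter (adjusted p = 0.0896) and when the 10 libraries of that age were fitted alone (adjusted p = 0.302).

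Hmgcs1 (chromosome 13, 119690462 to 119708086, plus strand) encodes the cytosolic HMG-CoA synthase, and carried the sterol regulatory element shown above. At 10 months it had 380, 388, 404, 391 and 397 CPM in KI replicates 3 to 7 and 368, 346, 340, 330 and 368 CPM in control replicates 6 to 10. At 3 months it had 386, 354, 343, 340 and 318 CPM in KI and 356, 264, 315, 290 and 271 CPM in control. The groups did not overlap at 10 months and overlapped at 3 months.

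The log2 fold changes of Hmgcs1 between genotypes were 0.16 ± 0.07 at 10 months and 0.22 ± 0.07 at 3 months, with edgeR adjusted p of 0.581 and 0.9998. By age they were 0.17 ± 0.07 in KI and 0.23 ± 0.07 in control, with adjusted p of 0.154 and 0.0811. None passed. Control replicate 6 at 3 months was the highest of its group, and without it the age change in control was 0.30 (adjusted p = 0.0071).

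Acat2 rose with age relative to Hmgcs1, the next step, in KI. The log2 difference of Acat2 from Hmgcs1 within a library was larger at 10 than at 3 months by 0.457 in KI, with an exact 2-sided permutation p of 0.00794, the smallest that 5 against 5 libraries allow, and 0.0191 after adjustment over 12 tests of this kind. In control the shift was 0.176 (exact p = 0.0635, adjusted 0.109). Between genotypes the shifts were 0.17 at 10 months (exact p = 0.0556, adjusted 0.109) and -0.11 at 3 months (exact p = 0.183, adjusted 0.244), and neither passed. Whether the age shift differed between KI and control was not tested.

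**Figure D1:**
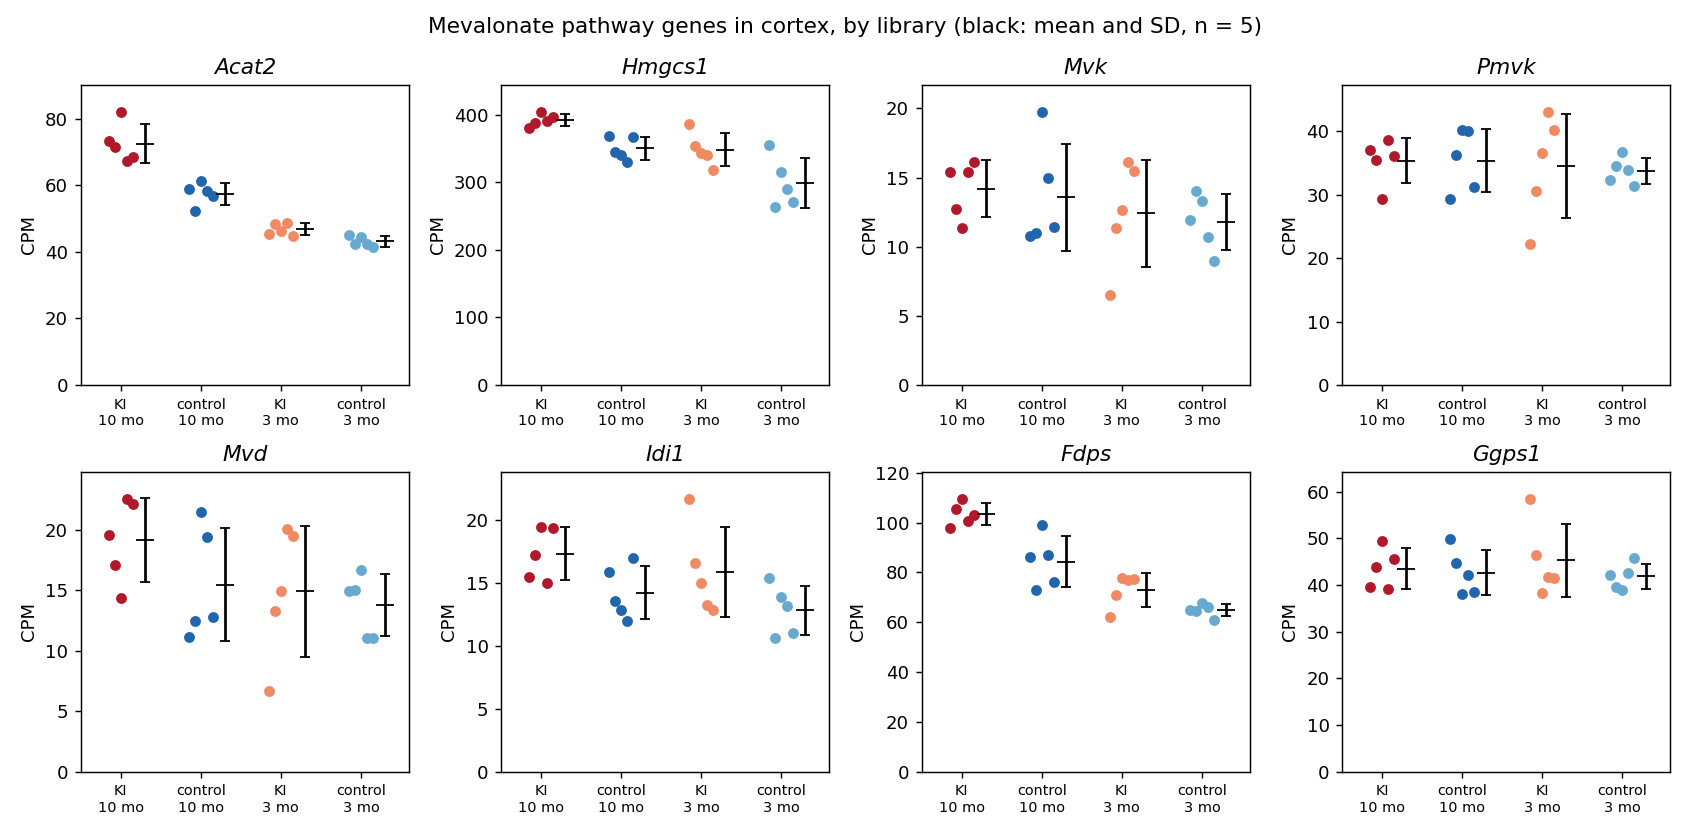
Level of each member in CPM (y axes, from 0) in each library, by group (x axes: KI and control at 10 months, KI and control at 3 months). Points are libraries in the order of their replicate number, and black marks are the mean and SD of 5 libraries. The 5 KI libraries at 10 months lie above the 5 controls of that age for Acat2 and Hmgcs1, while Mvk, Pmvk and Mvd spread widely within each group.

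The next 3 enzymes turn mevalonate into isopentenyl diphosphate: mevalonate kinase (Mvk, chromosome 5, 114444269 to 114460591, plus strand), phosphomevalonate kinase (Pmvk, chromosome 3, 89459118 to 89469013, plus strand) and mevalonate diphosphate decarboxylase (Mvd, chromosome 8, 122433596 to 122443422, minus strand). Mvk had 15.4, 12.7, 11.3, 15.4 and 16.1 CPM in KI and 10.8, 11.0, 19.7, 15.0 and 11.4 CPM in control at 10 months. At 3 months it had 6.48, 11.3, 12.7, 16.1 and 15.5 CPM in KI and 12.0, 14.0, 13.3, 10.7 and 8.94 CPM in control. All 4 groups overlapped.

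Pmvk had 37.1, 35.5, 29.4, 38.7 and 36.1 CPM in KI and 29.3, 36.3, 40.2, 40.1 and 31.2 CPM in control at 10 months. The 3-month levels were 22.3, 30.7, 36.5, 43 and 40.3 CPM in KI and 32.4, 34.5, 36.8, 33.9 and 31.4 CPM in control. Again the groups overlapped, and KI replicate 3 at 3 months was the lowest of all libraries, as it was for Mvk and Mvd.

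Mvd had 19.6, 17.1, 14.4, 22.6 and 22.1 CPM in KI and 11.1, 12.5, 21.5, 19.4 and 12.8 CPM in control at 10 months. At 3 months it had 6.67, 13.3, 15.0, 20.1 and 19.5 CPM in KI and 15.0, 15.1, 16.7, 11.1 and 11.1 CPM in control. Within-group coefficients of variation reached 36.5% for Mvd and 31.1% for Mvk, both in KI at 3 months, against at most 7.98% for Acat2.

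None of the 3 passed in any comparison. The 10-month genotype changes were 0.06 ± 0.20 for Mvk, -0.0018 ± 0.13 for Pmvk and 0.31 ± 0.23 for Mvd on the log2 scale (edgeR adjusted p = 0.967, 0.998 and 0.798). The 95% intervals ran from -0.37 to 0.50, from -0.28 to 0.28 and from -0.19 to 0.80, so changes of the size seen in Acat2 were not detectable in Mvk and Mvd with this spread. The largest age change was 0.36 ± 0.23, for Mvd in KI (adjusted p = 0.41).

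Idi1 (chromosome 13, 8885501 to 8892451, plus strand) encodes the isomerase that makes dimethylallyl diphosphate, the starter unit of prenyl chains. It had 15.4, 17.2, 19.4, 15.0 and 19.3 CPM in KI and 15.9, 13.5, 12.8, 11.9 and 16.9 CPM in control at 10 months. The 3-month levels were 21.6, 16.6, 15.0, 13.2 and 12.8 CPM in KI and 15.3, 10.6, 13.8, 13.1 and 11.0 CPM in control. Groups overlapped at both ages. The genotype changes, 0.28 ± 0.14 and 0.31 ± 0.14 at 10 and 3 months, did not pass (edgeR adjusted p = 0.64 and 0.9998), nor did the age changes of 0.13 ± 0.14 in KI and 0.15 ± 0.14 in control.

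Fdps (chromosome 3, 89093592 to 89101967, minus strand) encodes farnesyl diphosphate synthase, at the branch between sterol and non-sterol products. It had 97.9, 106, 110, 101 and 103 CPM in KI and 86.3, 73.0, 99.2, 87.0 and 76.3 CPM in control at 10 months. At 3 months it had 62.0, 71.1, 77.6, 77.0 and 77.5 CPM in KI and 64.8, 64.4, 67.6, 66.2 and 61.1 CPM in control. Control replicate 8 at 10 months reached into the KI range, and the genotypes overlapped at both ages.

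Between ages, the Fdps groups did not overlap in either genotype. Fdps rose 1.42-fold with age in KI (log2 0.50 ± 0.08, edgeR adjusted p = 0.000113) and 1.3-fold in control (0.38 ± 0.08, adjusted p = 0.00297), and no left-out library ended either call. The genotype change was 0.29 ± 0.07 at 10 months (adjusted p = 0.258) and 0.17 ± 0.08 at 3 months (adjusted p = 0.9998), neither of which passed.

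Ggps1 (chromosome 13, 14052449 to 14063401, minus strand) encodes geranylgeranyl diphosphate synthase. It had 39.6, 43.9, 49.5, 39.1 and 45.6 CPM in KI and 49.8, 44.7, 38.0, 42.1 and 38.6 CPM in control at 10 months. The 3-month levels were 58.5, 46.4, 38.4, 41.7 and 41.4 CPM in KI and 42.2, 39.7, 39.0, 42.6 and 45.8 CPM in control. The groups overlapped, and the largest of the 4 log2 changes was 0.11 ± 0.10, for genotype at 3 months (edgeR adjusted p = 0.9998).

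As a group, the members leaned upwards in KI and with age, with few calls. At 10 months 1 of 8 was called higher in KI, Acat2, where 0.0357% of all tested genes were called higher. The log2 fold change was above 0 in 7 of 8 members with a median of 0.22, against 50% of all genes and a median near 0 (0.000179). Groups that did not overlap, KI above control, numbered 2 of 8 (Acat2 and Hmgcs1), against 0.907% of all genes.

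At 3 months 0 of 8 members were called in either direction by edgeR, where 0.0255% of genes were called. DESeq2 called 0 of the members as well, and 3 of 8 had an unadjusted edgeR p under 0.05, against 745 of 19623 genes. The log2 fold change was above 0 in 8 of 8 members with a median of 0.12, against 52.4% of all genes, and no member had KI libraries all above control, against 0.306% of genes. These signs are not separate evidence, since Mvk, Pmvk and Mvd moved together across libraries. Without KI replicate 6 at 3 months they fell to -0.032, -0.058 and -0.013, and all 3 were also below 0 without KI replicate 7. Averaged over both ages, 8 of 8 were above 0 with a median of 0.20, and 1 was called higher, Acat2 (0.22 ± 0.04, adjusted p = 0.0323), where 0.0459% of genes were. Ggps1 averaged -0.011 without both libraries that stood apart.

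The averaged call of Acat2 also lay close to the threshold. It held without KI replicate 5 or 6 or control replicate 8 at 10 months, and without KI replicate 3 or control replicate 6 or 8 at 3 months. It was lost without any of the other 14 libraries, with edgeR adjusted p up to 0.137 (control replicate 7 at 10 months), and without a low-count filter (0.23, adjusted p = 0.0942). Averaged over ages, Fdps had a change of 0.23 ± 0.05 (adjusted p = 0.15), which became a call without control replicate 8 at 10 months (adjusted p = 0.0345) or KI replicate 3 at 3 months (adjusted p = 0.0375), and Hmgcs1 had 0.19 ± 0.05 (adjusted p = 0.3), a call without control replicate 6 at 3 months (adjusted p = 0.0467).

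With age, 2 of 8 members rose in KI, where 5.66% of all genes were called higher, and 2 of 8 rose in control, where 3.72% were. Both times these were Acat2 and Fdps, and in these 2 members the 10-month libraries all lay above the 3-month ones, as they did in 5.34% of genes in KI and 4.56% in control. Log2 changes were above 0 in 7 of 8 members in KI (median 0.18) and 8 of 8 in control (median 0.19), against 49.3% and 49% of all genes. The interaction of genotype and age called 0 members and 0 genes with edgeR. At an unadjusted p under 0.05 it held 1 member (Acat2) and 883 genes, and DESeq2 called 4 genes. The comparisons share groups: the 10-month control libraries, for example, stand in both a genotype and an age contrast.

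**Figure D2:**
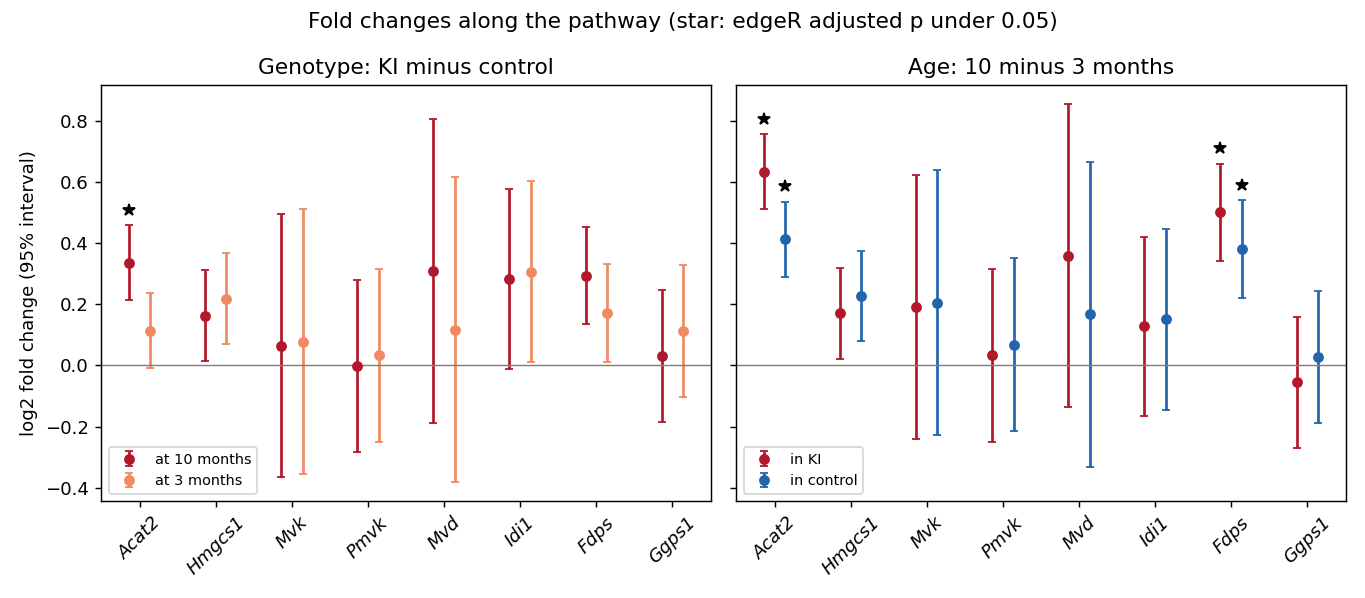
Log2 fold changes (y axis) of the members in pathway order (x axis) for genotype, KI minus control (left panel, at 10 and at 3 months), and age, 10 minus 3 months (right panel, in KI and in control). Bars are 95% intervals built from the edgeR log2 fold change, an SE taken from its F statistic, and a t distribution with 16 degrees of freedom. Stars mark edgeR adjusted p under 0.05, which fall on Acat2 at 10 months and on Acat2 and Fdps with age. Intervals are widest for Mvk and Mvd.

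Within groups, the members did not vary as a single block. Over the 20 libraries, with group means taken off the log2 CPM, Pearson's r among the 28 pairs ran from -0.804 to 0.971 with a median of 0.0684, and 14 pairs had a permutation p under 0.05 after adjustment over the 28. Mvk and Mvd had r = 0.971 (Spearman's rho = 0.944), Pmvk and Mvd 0.921 (0.895) and Mvk and Pmvk 0.892 (0.838). Each of these had a permutation p of at most 2e-05, where 1e-05 is the smallest 100000 permutations can give (adjusted p = 0.00014). Without the 2 libraries farthest from the median of the x-axis gene, r was 0.953, 0.845 and 0.832.

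Hmgcs1 and Idi1 formed another close pair, with r = 0.855 and rho = 0.899 (permutation p = 1e-05 each, adjusted p = 0.00014 for r), and r = 0.848 without the 2 farthest libraries. Acat2 and Fdps had r = 0.562 and rho = 0.573 (permutation p = 0.00969 and 0.0128, adjusted p = 0.0247 and 0.0398), and r = 0.456 without the 2 farthest. Ggps1 ran opposite to Mvk, Pmvk and Mvd, with r of -0.80, -0.804 and -0.795 (permutation p = 0.0007, 0.00169 and 0.00129, adjusted p at most 0.00591). For these, rho was -0.672, -0.695 and -0.699, and r was -0.661, -0.698 and -0.61 without the 2 farthest libraries.

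**Figure D3:**
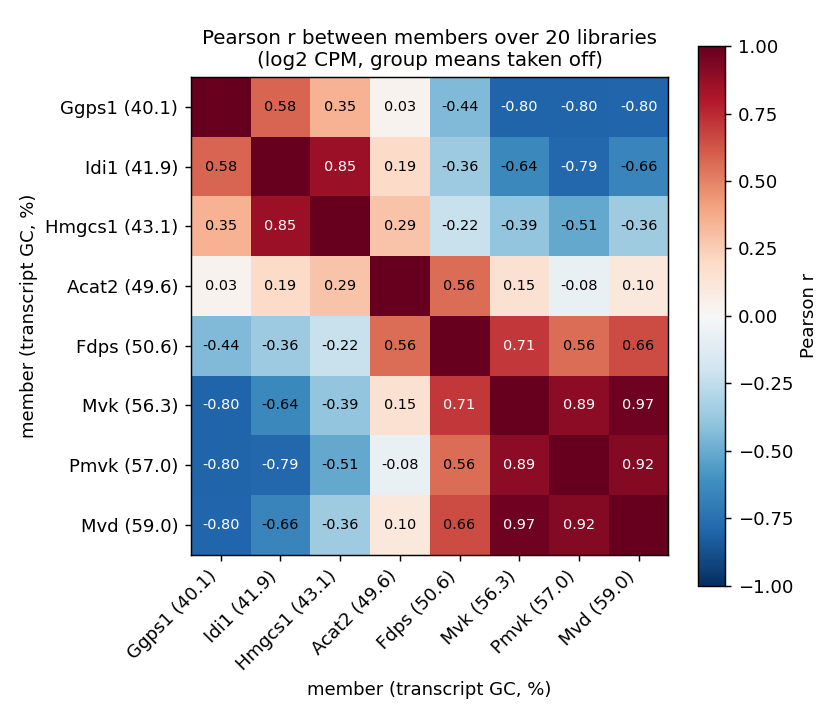
Pearson r between each pair of members over 20 libraries, computed on log2 CPM with group means taken off (colour scale from -1 to 1). Genes run along both axes in order of the GC content of their longest transcript, in percent. Mvk, Pmvk and Mvd form a block with r from 0.89 to 0.97 and have r near -0.80 with Ggps1.

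This order followed GC content. The longest transcripts of Mvd, Pmvk and Mvk held 59.0%, 57% and 56.3% GC, those of Fdps and Acat2 50.6% and 49.6%, and those of Hmgcs1, Idi1 and Ggps1 43.1%, 41.9% and 40.1%. A GC slope was computed for each library as the change in log2 CPM, relative to the mean of all libraries, per 10 percentage points of transcript GC. It ran from -0.249 to 0.0827 in KI and from -0.176 to 0.272 in control at 10 months, and from -0.48 to 0.191 in KI and from -0.0629 to 0.144 in control at 3 months. The lowest slopes were those of KI replicate 3 at 3 months (-0.48) and KI replicate 5 at 10 months (-0.249), and the groups overlapped.

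Members rich in GC rose and fell with this slope within groups. Pearson's r with the slope was 0.964 for Pmvk, 0.95 for Mvk and 0.943 for Mvd (Spearman's rho 0.932, 0.917 and 0.898, permutation p at most 3e-05 for each, adjusted over the 9 relations computed at most 9e-05). Idi1 and Ggps1 had r of -0.794 and -0.848 (rho -0.779 and -0.732, adjusted permutation p at most 0.00432). Acat2 showed no detectable relation (r = -0.0597, rho = 0.00301, permutation p = 0.799 and 0.993). Without the 2 libraries of most distant slope, r was 0.927, 0.919, 0.896, -0.677, -0.706 and 0.108 for Pmvk, Mvk, Mvd, Idi1, Ggps1 and Acat2.

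Hmgcs1 and Fdps lay between these. Hmgcs1 had r = -0.567 and rho = -0.635 (adjusted permutation p = 0.0049 and 0.00625). Fdps had r = 0.603 and rho = 0.508 (0.0327 and 0.0661). Without the 2 libraries of most distant slope, r was -0.467 and 0.588. The slope was measured from the same counts, and its source was not tested.

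**Figure D4:**
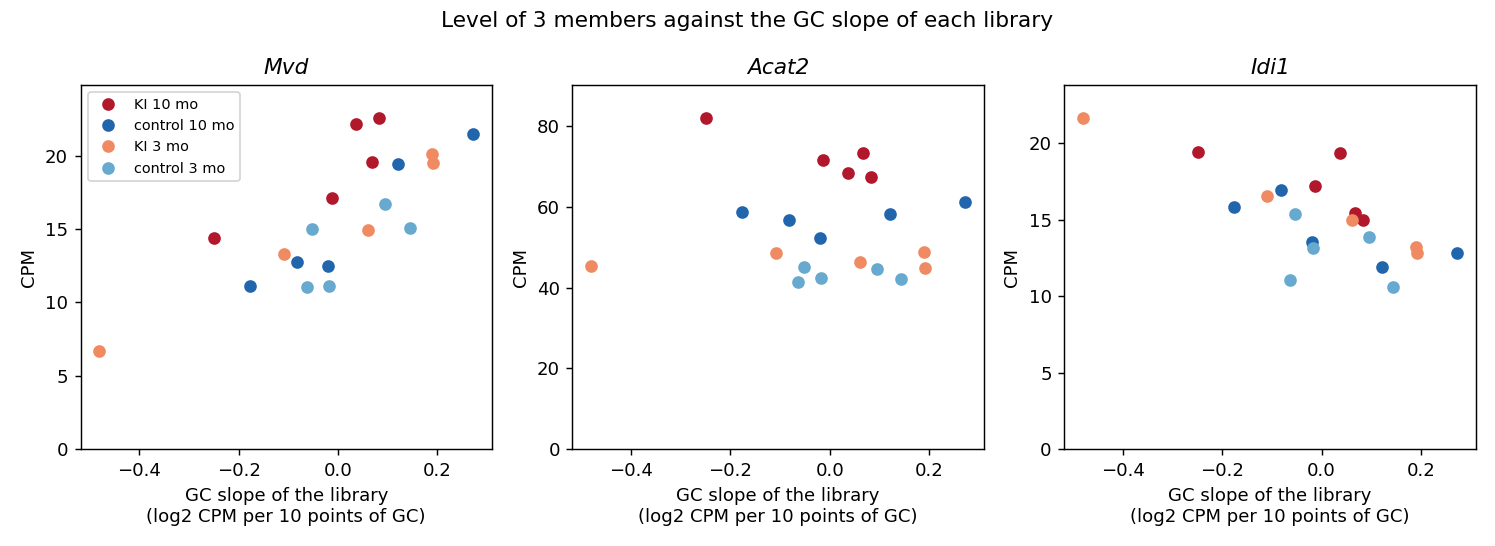
Level of Mvd, Acat2 and Idi1 in CPM (y axes, from 0) against the GC slope of the library (x axes, log2 CPM per 10 percentage points of transcript GC), with 1 point per library coloured by group. Mvd is lowest and Idi1 highest in the library of lowest slope (-0.48, KI replicate 3 at 3 months), while Acat2 is highest in the 5 KI libraries at 10 months at any slope.

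With the GC slope as a covariate, an alternative added after the data had been seen, more members were called and the SE of Mvk, Pmvk and Mvd shrank. Shares of genes given for fits with this covariate count calls in either direction. At 10 months 3 of 8 were called higher in KI, where 0.428% of genes were called. Acat2 had a log2 fold change of 0.33 ± 0.05, Fdps 0.31 ± 0.06 and Mvd 0.42 ± 0.09 (edgeR adjusted p = 0.0031, 0.018 and 0.0352). With both libraries that stood apart left out as well, the same 3 had 0.28, 0.26 and 0.38 (adjusted p = 0.00801, 0.0294 and 0.0499), where 1.01% of genes were called. Pmvk and Ggps1 stayed near 0, at 0.05 ± 0.04 and 0.00085 ± 0.06.

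In the same fit, 0 of 8 members were called by genotype at 3 months, where 0.0561% of genes were, and 2 of 8 on average over ages, Acat2 and Fdps, where 0.347% were. With age, 5 of 8 rose in KI (Acat2, Hmgcs1, Mvk, Mvd and Fdps), where 20.8% of genes were called in either direction. In control 3 of 8 rose (Acat2, Hmgcs1 and Fdps), where 10.2% of genes were called in either direction. With both libraries left out, 3 of 8 were called in KI (Acat2, Mvd and Fdps), where 16.4% of genes were, and 3 of 8 in control (Acat2, Hmgcs1 and Fdps), where 10.9% were. The interaction called 0 members and 0 genes, with Acat2 at 0.22 ± 0.07 (edgeR adjusted p = 0.336).

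**Figure D5:**
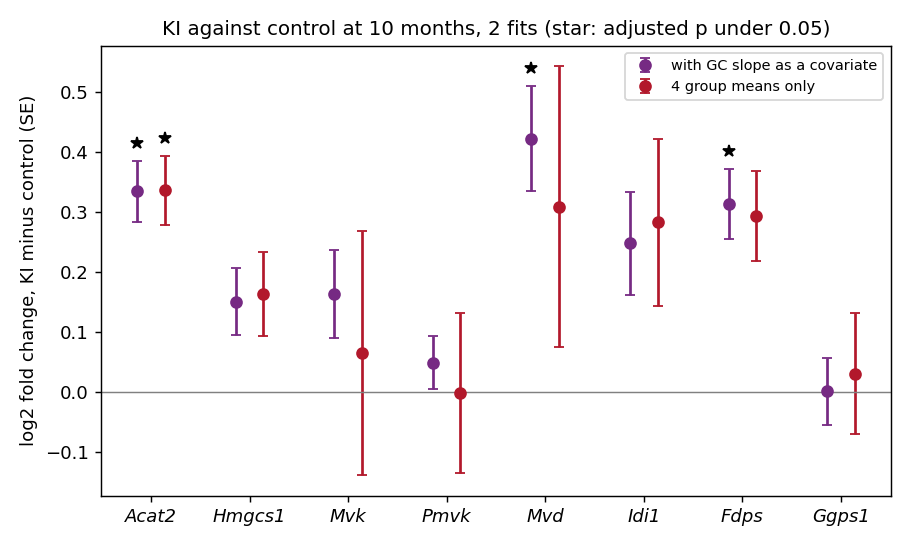
Log2 fold change of each member (x axis, pathway order) between KI and control at 10 months (y axis, KI minus control), from the fit with the GC slope as a covariate (left point) and from the fit with the 4 group means only (right point). Bars are SE and stars mark edgeR adjusted p under 0.05. Acat2 is starred in both fits, and Mvd (0.42 against 0.31) and Fdps (0.31 against 0.29) with the covariate only.

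Later steps of the pathway leaned the same way in sign, with few calls. Of 12 genes from squalene to cholesterol, 11 had a log2 fold change above 0 between genotypes at 10 months (median 0.17) and 2 rose: Fdft1, the squalene synthase that takes up farnesyl diphosphate, by 0.26 ± 0.05, and Nsdhl, a sterol dehydrogenase, by 0.32 ± 0.06 (edgeR adjusted p = 0.0452 and 0.0497). Both calls were lost without the 2 libraries that stood apart, at 0.23 and 0.26 (adjusted p = 0.0706 and 0.0637). With all libraries, 0.0357% of all tested genes were called higher in KI at that age. Fdft1 averaged 178 ± 7.17 CPM in KI cortex against 148 ± 4.35 CPM in control cortex at that age (n = 5 each, SD). With age, 5 of 12 rose in KI (Fdft1, Sqle, Lss, Msmo1 and Nsdhl), where 5.66% of all genes were called higher. In control 4 of 12 rose (the same genes without Msmo1), where 3.72% were. The largest of these changes was that of Nsdhl in KI, at 0.54 ± 0.06 (adjusted p = 2.54e-06). Msmo1 had 0.28 ± 0.08 in control (edgeR adjusted p = 0.06). Without the 2 libraries that stood apart, Msmo1 (0.29, adjusted p = 0.00565) and Ebp (0.20, adjusted p = 0.0261) were called in control.

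Of 11 genes of sterol sensing and trafficking, 1 rose in KI at 10 months, where 0.0357% of all genes were called higher. The median log2 fold change of the 11 was 0.0169. The gene that rose was Insig1, which holds the SREBP complex in the endoplasmic reticulum and averaged 116 ± 3.3 CPM in KI cortex against 82.5 ± 8.76 CPM in control cortex (n = 5 each, SD), a log2 fold change of 0.49 ± 0.07 (edgeR adjusted p = 0.00225). Averaged over ages Insig1 rose by 0.39 ± 0.05 (adjusted p = 0.000355). With age, 3 of 11 rose in KI (Insig1, Mylip and Stard4), where 5.66% of all genes were called higher, and 2 in control (Mylip and Stard4), where 3.72% were. In control Insig1 had 0.24 ± 0.07 (edgeR adjusted p = 0.0668), and was called without the 2 libraries that stood apart (0.25, adjusted p = 0.032). Its interaction of genotype and age did not pass (adjusted p = 0.9995). Stard4, a sterol carrier, rose by 0.48 ± 0.08 in KI and 0.36 ± 0.08 in control (adjusted p = 0.000496 and 0.0104).

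Of 4 genes that supply acetyl-CoA, 0 were called by genotype at either age by edgeR, and 0 had an unadjusted p under 0.05. With age in KI, 1 of the 4 rose, where 5.66% of all genes were called higher. This was Slc25a1, the mitochondrial citrate carrier, at 0.28 ± 0.07 (edgeR adjusted p = 0.0102), which had 0.17 ± 0.07 in control (adjusted p = 0.221). Acly, the ATP citrate lyase that makes cytosolic acetyl-CoA, had a genotype change of 0.03 ± 0.07 at 10 months.

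Markers of several cell types moved beside the members. With age, 6 of 8 microglial markers rose in each genotype, their summed level being 741 to 987 CPM in KI and 626 to 790 CPM in control at 10 months, and 318 to 361 CPM in KI and 285 to 353 CPM in control at 3 months. The astrocyte markers Gfap and Aldoc, 2 of 8, rose with age in both genotypes, with summed levels of 6130 to 7190 and 6010 to 6940 CPM in KI and control at 10 months and 4930 to 6350 and 5280 to 5560 CPM at 3 months. Of 8 markers of thalamus, 7 fell with age in KI and 1 in control. Their summed level was 83.6 to 102 CPM in KI and 82.9 to 90 CPM in control at 10 months, and 127 to 263 and 87.6 to 191 CPM at 3 months. Of 5 interneuron markers, Gad1 fell with age in KI, and their summed level was 695 to 791 CPM in KI and 678 to 790 CPM in control at 10 months, and 804 to 880 CPM in KI and 790 to 892 CPM in control at 3 months. In KI, 1 of 7 markers of oligodendrocyte precursors (Gpr17) and 1 of 4 of endothelium (Cldn5) fell with age, and 2 of 3 of erythrocytes (Hbb-bs and Alas2) rose. Among all 19623 genes, 1582 were called with age in KI and 799 in control, in either direction.

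Between genotypes at 10 months, oligodendrocyte markers had log2 fold changes above 0 in 12 of 12 genes (median 0.15) with 0 called by edgeR and 1 at an unadjusted p under 0.05. Their summed level was 3640 to 4570 CPM in KI and 3170 to 4330 CPM in control. Microglial markers were above 0 in 8 of 8 genes (median 0.109), with 2 at an unadjusted edgeR p under 0.05. Endothelial markers were above 0 in 0 of 4 (median -0.166, 2 under 0.05), and those of oligodendrocyte precursors in 1 of 7 (median -0.0975, 1 under 0.05). Again 0 were called in each of these lists. Choroid plexus markers ranged from 23 to 1270 CPM in KI and from 28.1 to 2090 CPM in control at that age. Between genotypes at 3 months, thalamus markers were above 0 in 8 of 8 (median 0.611, 5 at an unadjusted edgeR p under 0.05). Those of meninges were above 0 in 6 of 6 (median 0.462, 3 under 0.05), and those of erythrocytes in 0 of 3 (median -0.83, 3 under 0.05). Oligodendrocyte markers were above 0 in 10 of 12 (median 0.0601, 0 under 0.05). In each of these lists 0 were called. No marker was at 0 in a whole group, and the part of these cell types and tissues in the members' changes was not tested.

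Some member counts may be shared with other genes, since the counting program and its strand setting are not given in the sources used here. Acat3, a close copy of Acat2, is 97.7% identical to it over 1477 bases and held 294 to 726 counts per library, at most 19.5% of those of Acat2. Acat2 and Acat3 together averaged 82.3 ± 7.75 CPM in KI cortex against 66.5 ± 4.33 CPM in control cortex at 10 months (n = 5 each, SD), a ratio of 1.24 with no overlap (exact permutation p = 0.00794). Tcp1, which is 98.7% identical over 445 bases of Acat2, held 8462 to 12930 counts, with a genotype change of 0.02 ± 0.07 at 10 months. Ggps1 shares 257 exon bases with Arid4b and Mvd lies inside Gm20388, both on opposite strands, and Idi1 is matched over 684 bases by Gm13502 (62 to 128 counts), so these members' values are uncertain to that extent. Hmgcs1 is matched over 462 bases by Gm48342 (100% identical), Ggps1 over 903 bases by Gm5630 (97.2%), and Idi1 also by Gm35570, Gm8911 and Gm48574. None of these copies was among the annotated genes, so they have no counts. Gm22935 (3 to 19 counts) overlaps Fdps on the same strand over 104 bases, with 0 exon bases shared. None of the neighbours and copies with counts was called in any of the 6 comparisons with all 20 libraries. With age in control, Acat3 had 0.44 ± 0.14 (edgeR adjusted p = 0.096), and was called without the 2 libraries that stood apart (0.44, adjusted p = 0.0256).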

How the data were processed

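Raw counts of the 20 libraries were deposited by the authors in 1 table, with gene lengths and coordinates on mm10, named as the build in the submitters' processing notes. Aligner, counter and strand setting are not given in the sources used here. Testing was by edgeR 4.0.16 (R 4.3.3): low counts were removed by filterByExpr, libraries scaled by TMM (0.972 to 1.03), and a quasi-likelihood F test fitted to the 4 group means (16 residual degrees of freedom), with Benjamini-Hochberg adjustment over 19623 genes and calls at 0.05. The contrasts were genotype at each age, their average, age in each genotype, and the interaction.

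Members, called genes of the other pathway lists (or up to 3 of smallest p), overlapping genes and copies, and the 8 genes of most similar pattern are named, except some genes that are not reported here. Members and lists were chosen with earlier results of these data known. Single values were compared by exact 2-sided permutation over libraries, and correlations by 100000 permutations. The GC slope used the longest GENCODE transcript of 15325 of 15456 genes with a mean of at least 1 CPM. Promoters came from RefSeq. The edgeR step was checked on simulated counts. Alternatives were DESeq2 1.42.0, RLE scaling, no filter, a mean of 1 CPM, compared libraries alone, a replicate block, a threshold of 0.10, leaving out libraries, and the GC slope as a covariate. Library totals ran from 42896149 to 57447015 counts, and counting error alone was 0.681% to 6.04% of a member's count.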

Additional observations from a re-analysis of the deposited data

How the results depend on the processing

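With few libraries per group, changes near the size of the spread between them pass or miss on small differences. The counting setting and shared sequence limit Acat2, Hmgcs1, Idi1, Mvd and Ggps1, and GC slopes that differ between libraries limit the members at either end of GC content. Acat2 and Fdps with age were called under every alternative run. Of 1056 member values under the alternatives, 68 changed sign, all of them in Ggps1, Pmvk, Mvk, Mvd or Idi1 where the change was near 0 or the spread wide.

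The replicate numbers in the titles did not pair the libraries: of 18 pairs that share a number, 3 had deviations that correlated above 0.1, and 1 of 20 libraries correlated best with its own number. With a replicate block, 0 members were called by genotype at 10 months and 0 on average over ages, with 4 genes in each. Acat2 then had 0.31 at 10 months and 0.20 on average (edgeR adjusted p = 0.529 and 0.747). Ggps1 then turned to -0.038 at 3 months, -0.10 at 10 months and -0.070 on average, Pmvk to 0.26 at 10 months, and the interactions of Mvk, Pmvk and Idi1 to 0.054, 0.00074 and 0.0063.

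Without a low-count filter, 0 members were called by genotype at 10 months and 0 on average. With the compared libraries alone, 0 members and 7 genes were called at 10 months and 958 genes by age in KI. A threshold of 0.10 called 31 genes on average over ages. DESeq2 called 12 genes at 3 months, 59 at 10 months, 49 on average (with 2 members, Acat2 and Fdps) and 4 in the interaction.

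With the GC slope as a covariate, genes called were 11 at 3 months, 84 at 10 months, 68 on average, 4086 by age in KI and 2009 in control, and members called were 3 at 10 months, 2 on average and 5 by age in KI. Pmvk turned to 0.049 at 10 months, and the interactions of Mvk and Idi1 to 0.050 and 0.016. With KI replicate 5 at 10 months and KI replicate 3 at 3 months also left out, 199 genes and 3 members were called at 10 months, 61 and 2 on average, 3233 genes by age in KI, 2156 in control and 5 in the interaction. Pmvk and Ggps1 then stood at 0.035 and -0.013 at 10 months, and the interactions of Mvk and Idi1 at 0.0049 and 0.024. These fits were chosen after seeing the data.

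With those 2 libraries left out and no covariate, Pmvk and Ggps1 stood at 0.049 and -0.030 at 10 months, Ggps1 at -0.011 on average, Pmvk at -0.033 by age in KI and the interaction of Idi1 at 0.056. Of 23 calls of other pathway genes, 20 held without those libraries and 3 were lost (Fdft1 and Nsdhl at 10 months, Chml by age in KI), an alternative chosen after seeing the data. By age in control, Insig1, Msmo1, Ebp and Acat3 were then called as well, at 0.25, 0.29, 0.20 and 0.44 (edgeR adjusted p = 0.032, 0.00565, 0.0261 and 0.0256). Members called by age in control were then 3.

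Leaving out 1 library at a time, 0 to 1 members and 7 to 14 genes were called at 10 months, and 0 to 2 members on average over ages. At 10 months Mvk ran from -0.014 to 0.24, Pmvk from -0.063 to 0.058 and Ggps1 from -0.020 to 0.093. At 3 months Mvk ran from -0.032 to 0.24, Pmvk from -0.058 to 0.16 and Mvd from -0.013 to 0.30, and on average Pmvk ran from -0.030 to 0.075. By age in KI, Pmvk ran from -0.090 to 0.12 and Ggps1 from -0.12 to 0.053, and in control Ggps1 from -0.036 to 0.065. The interaction ran from -0.18 to 0.16 for Mvk, -0.17 to 0.056 for Pmvk, -0.0036 to 0.34 for Mvd, -0.098 to 0.10 for Idi1 and -0.15 to 0.018 for Ggps1. The causes of these shifts were not tested.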

Other observations

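Of 7 tested counterparts of the members, which serve ketone bodies or related reactions, 0 were called in any comparison by edgeR with all 20 libraries. Without the 2 libraries that stood apart, Acat3 was called with age in control (0.44, edgeR adjusted p = 0.0256). Oxct1, which activates ketone bodies, averaged 413 ± 20 CPM in KI cortex against 372 ± 26.3 CPM in control cortex of 10-month mice (n = 5 each, SD, log2 fold change 0.15 ± 0.06, edgeR adjusted p = 0.507). Acat1, the mitochondrial thiolase, had 0.11 ± 0.05 and Hmgcll1, an HMG-CoA lyase, 0.15 ± 0.10 (adjusted p = 0.635 and 0.774). The eighth, Idi2, had too few counts to be tested.

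Of 20 genes that use prenyl diphosphates, in prenylation, dolichol, coenzyme Q or heme A synthesis, 0 were called between genotypes at either age by edgeR, with 2 at an unadjusted p under 0.05 at 10 months and 0 at 3 months. With age in KI, 1 of the 20 was called higher and 1 lower, where 1582 of 19623 genes were called in either direction. Srd5a3, a polyprenol reductase of dolichol synthesis, rose with age in KI by 0.33 ± 0.06 (edgeR adjusted p = 0.00223), and had 0.09 ± 0.06 in control (adjusted p = 0.623). Chml, a Rab escort protein, fell with age in KI by 0.52 ± 0.15 (adjusted p = 0.0384), a call lost without the 2 libraries that stood apart (-0.36, adjusted p = 0.0986), and had -0.20 ± 0.15 in control (adjusted p = 0.684). The difference between genotypes in these age effects did not pass for either gene (edgeR adjusted p = 0.9995 each).

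Over the 20 libraries, with group means taken off, genes whose log2 CPM followed the mean of the members most closely among 15448 included Dhcr7 (r = 0.923), Pla2g6 (0.917), Acly (0.911), D8Ertd82e (0.909), Prex1 (0.904), Adcy5 (0.899) and Nrxn2 (0.899). Dhcr7 encodes the reductase of a last step of cholesterol synthesis. Taken singly, the genes closest to Hmgcs1 included Stard4 (0.893) and Cyp51 (0.835), both of sterol metabolism, while the closest genes to Mvk were Atn1 and Kcnh2 (0.987 each) and to Pmvk Haghl (0.984). Without KI replicate 5 at 10 months and KI replicate 3 at 3 months, r with the mean of the members ran from 0.841 (Adcy5) to 0.90 (Dhcr7) over these 7 genes, and was 0.873 and 0.801 for Stard4 and Cyp51 with Hmgcs1, 0.977 and 0.982 for Atn1 and Kcnh2 with Mvk, and 0.961 for Haghl with Pmvk. For the other members, the closest genes were Gm5822 (Acat2, r = 0.781), Cd74 (Fdps, 0.868), Gdpd5 (Mvd, 0.977), Osbpl8 (Idi1, 0.947) and Ndufs1 (Ggps1, 0.932). Without the same libraries, r was 0.685, 0.896, 0.96, 0.914 and 0.873, in that order. All these correlations are descriptions across libraries that differ in GC slope.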
